A study of Mus musculus with 6 samples.

Results

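The genes described here were the vomeronasal receptor genes with counts in mouse embryonic keratinocytes, which were 288 of the 590 vomeronasal receptor genes listed and of 55536 genes in all. A gene belonged to the set when its symbol began with Vmn1r or Vmn2r, pseudogenes included, and its raw counts over all 6 libraries summed to 3 or more. The members were thus chosen by their summed counts, which are given as a description. Of the members, 217 were annotated as protein-coding and 71 as pseudogenes. A cluster of 69 annotated V1R and V2R genes on chromosome 13, spanning 1212.1 kb (GRCm39, chr13:22241516-23453644), held 32 of the members and was set apart from the other 256.

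Bulk RNA-seq was made from basal keratinocytes that carried Epcam and α6 integrin on their surface, sorted from the back skin of E16.5 mouse embryos. The control group (Ctrl) had 3 libraries from embryos with floxed *Suv39h1*, a constitutive loss of *Suv39h2* and floxed *Setdb1*, without K14CreERT2. The triple-knockout group (TKO) had 3 libraries from embryos of the same alleles with K14CreERT2, a tamoxifen-activated Cre driven by the keratin 14 promoter of basal keratinocytes. All embryos received tamoxifen, so that both groups lacked *Suv39h2* and differed in Cre. The mice were of mixed background, and the study listed the litters used for RNA-seq as mosaic in knockout efficiency. The female embryos were Ctrl replicate 1 and TKO replicate 2. The labels do not say whether the replicate numbers pair embryos.

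*Suv39h1*, *Suv39h2* and *Setdb1* encode histone methyltransferases that place methyl groups on lysine 9 of histone H3. *Setdb1* had 125.5, 117.9 and 121.1 CPM (counts scaled to an equal library size) in the Ctrl libraries and 95.3, 62.3 and 74.9 in the TKO libraries. It was lower in every TKO library, with a log2 fold change of -0.65 (SE 0.16) and an edgeR adjusted p of 0.286. *Suv39h1* was at 83.7 ± 5.10 CPM in Ctrl and 78.0 ± 10.46 in TKO (SD, n = 3). *Suv39h2* was at 16.2 ± 0.784 CPM in Ctrl and 17.5 ± 1.46 in TKO. Counts over a whole gene do not show whether the floxed or deleted exons were lost, and these levels are no measure of the proteins.

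Vomeronasal receptors are G protein-coupled receptors of the vomeronasal organ, where sensory neurons detect pheromones and other chemical cues from animals. V1R genes have a single coding exon and signal through the G protein subunit encoded by *Gnai2*, and V2R genes encode a long extracellular domain over several exons and signal through the subunit encoded by *Gnao1*. Both families lie in large clusters with many pseudogenes, and each sensory neuron uses very few of the genes.

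Detection was near the floor for almost all members. The libraries held between 102159175 and 136515436 counts, and 3 counts corresponded to between 0.0232 and 0.0303 CPM, depending on the library. Of the vomeronasal receptor genes listed, 265 had no count and 37 had 1 or 2. Just outside the threshold were 18 genes with 2 counts, such as *Vmn1r12* and *Vmn2r51*, and just inside were 28 genes with 3, such as *Vmn1r75* and *Vmn2r91*. The median member had 11 counts over the 6 libraries together. There were 165 members with 10 counts or more, 15 with 50 or more and 7 with 100 or more. A count appeared in only 1 library for 82 members, in 2 libraries for 96 and in all 6 for 8. In bulk RNA, few cells with much of a transcript and many cells with little cannot be told apart.

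A pair of control libraries stood apart from the rest. Ctrl replicate 1 and Ctrl replicate 3 had at least 1 count for 31058 and 30237 genes of any kind, whereas the other 4 libraries had between 25002 and 26854. Ctrl replicate 2, the library with the most counts in all, had 25598. Ctrl replicates 1 and 3 also stood above the others for the vomeronasal receptor genes. There were 198 members with a count in Ctrl replicate 1 and 187 in Ctrl replicate 3, but 49 in Ctrl replicate 2. The TKO libraries had 67, 94 and 103. Of the 12622 genes with 3 to 30 counts outside the vomeronasal and olfactory receptor families, 53.9% and 50.6% had a count in Ctrl replicates 1 and 3, and between 24.8% and 31.0% in the other libraries. The part of this difference between libraries in the group comparisons below was not tested, other than by leaving these libraries out.

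**Figure D1:**
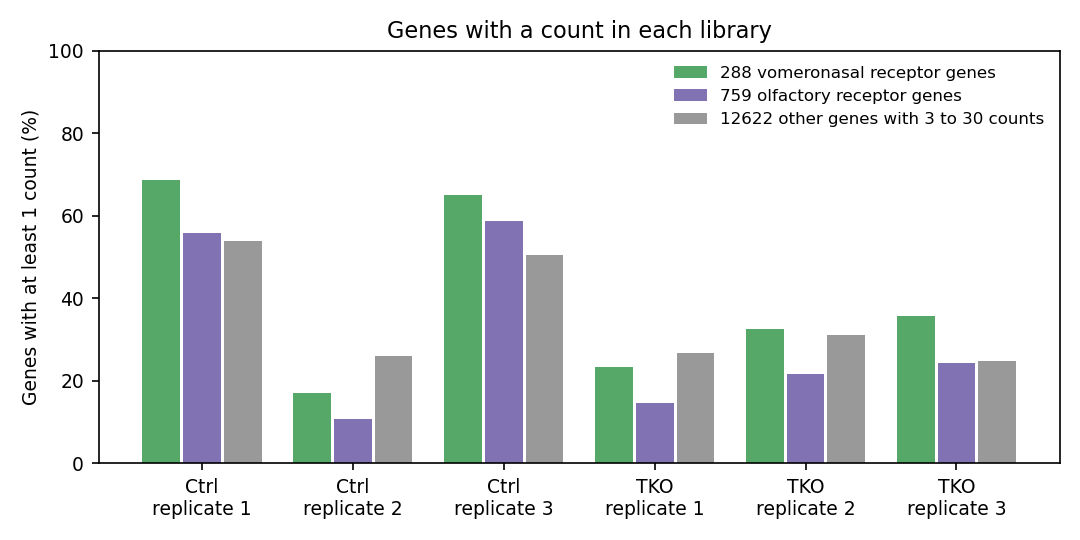
Percent of genes with at least 1 count in each of the 6 libraries, for the vomeronasal receptor genes (green), the olfactory receptor genes with 3 or more counts (purple) and other genes with 3 to 30 counts (grey). In all 3 sets Ctrl replicates 1 and 3 stand above the other libraries, at 68.8% and 64.9% for the vomeronasal receptor genes against 17.0% in Ctrl replicate 2.

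The member with the most counts and the only one that passed the test for a group difference was *Vmn1r-ps135* (ENSMUSG00000084096), an unprocessed pseudogene of the V1R family at chr13:23453050-23453644 on the plus strand (GRCm39), the last gene of the chromosome 13 cluster. Its sequence matters for the comparison, since reads from near-identical copies can be assigned to the wrong one. A BLAST search of GRCm39 found 1 other copy over at least 80% of its 595 bases, at 95% identity, on the minus strand of the same cluster within *Vmn1r-ps97*. The first 220 bases of both are shown, with the single base at which these stretches differ in capitals (GRCm39, chr13:23453050-23453269, plus strand, and chr13:22320976-22321195, minus strand).

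Vmn1r-ps135: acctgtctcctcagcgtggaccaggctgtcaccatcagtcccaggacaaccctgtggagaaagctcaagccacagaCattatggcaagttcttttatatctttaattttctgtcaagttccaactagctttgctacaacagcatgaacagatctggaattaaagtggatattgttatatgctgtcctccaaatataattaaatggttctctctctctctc
closest copy: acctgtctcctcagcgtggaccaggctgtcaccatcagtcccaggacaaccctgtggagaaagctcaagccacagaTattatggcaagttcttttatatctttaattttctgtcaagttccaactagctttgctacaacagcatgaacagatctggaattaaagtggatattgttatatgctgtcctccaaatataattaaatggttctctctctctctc

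Over the full alignment the copies differed in 28 columns, so that reads within the stretch shown that miss the base in capitals match both. *Vmn1r-ps97* was listed at 0 counts in all 6 libraries. How the counting treated reads that align to more than 1 place is not given in the sources used here.

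*Vmn1r-ps135* had 4, 0 and 2 counts in Ctrl replicates 1 to 3 and 102, 167 and 233 counts in TKO replicates 1 to 3. In CPM these were 0.0404, 0 and 0.0186 in Ctrl and 0.867, 1.51 and 1.92 in TKO. Every TKO library was far above every Ctrl library, and the groups did not overlap. The Ctrl libraries averaged 0.0196 ± 0.0202 CPM and the TKO libraries 1.43 ± 0.529 CPM (SD, n = 3), a ratio of 72.9 that rests on 6 Ctrl counts in all. The log2 fold change was 6.19 (SE 0.83) with an edgeR adjusted p of 0.0284 over 20622 genes tested. The gene passed the low-count filter (minimum count 10) through its TKO libraries alone, the group in which it was high. In the same fit 27 genes were called higher in TKO (0.131% of those tested) and none lower (0.0%), where called means an adjusted p under 0.05 and a log2 fold change above 1 in size, while at an unadjusted p under 0.05 there were 837 higher and 416 lower. DESeq2 on the same genes called 193 higher and 21 lower. The call was lost when Ctrl replicate 1, 2 or 3 or TKO replicate 2 was left out (edgeR adjusted p = 0.101, 0.0778, 0.215 and 0.0614). Without both Ctrl replicates 1 and 3, which leaves a single Ctrl library assumed to vary as the TKO libraries do, the adjusted p was 0.332, and since that library has no count of the gene its fitted fold change depends on the prior count and is not given.

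**Figure D2:**
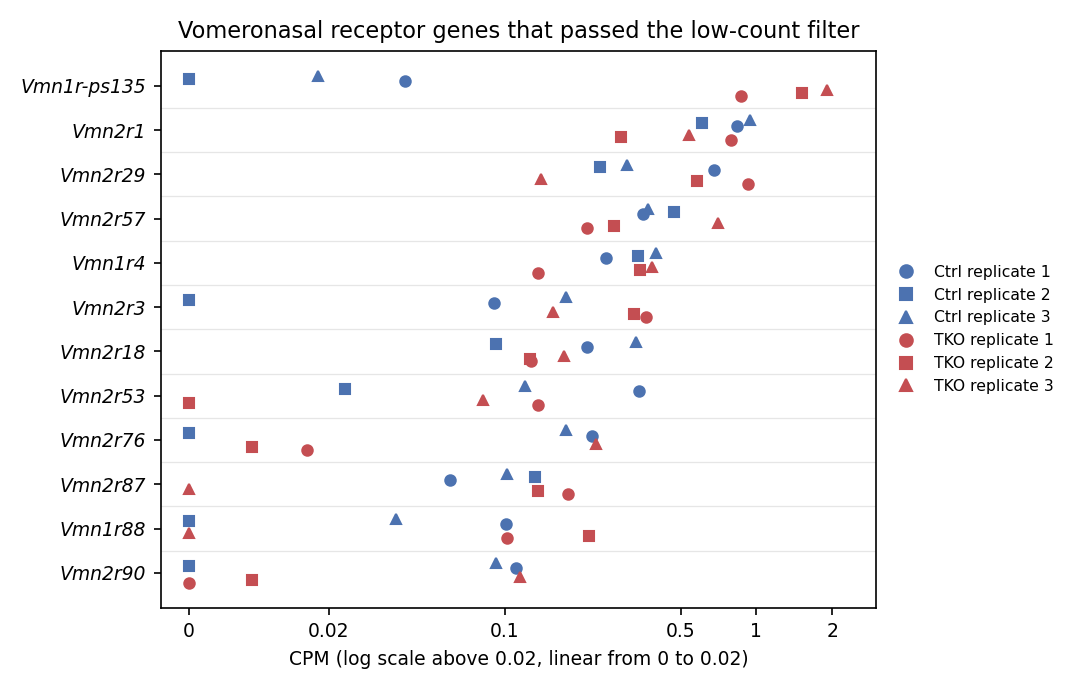
CPM in each library of the 12 vomeronasal receptor genes that passed the low-count filter, in order of their summed counts, with Ctrl libraries in blue and TKO libraries in red. *Vmn1r-ps135* has its 3 TKO libraries between 0.867 and 1.92 CPM and its Ctrl libraries at or below 0.0404, and for the other 11 genes the groups overlap.

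None of the remaining 31 cluster members passed the low-count filter, so none was tested in this fit. Together the 32 members had 858 counts, of which *Vmn1r-ps135* held 59.2%, with a share of 2.74% in the Ctrl libraries and 78.6% in the TKO libraries. The summed level of the whole cluster was 1.23, 0.00774 and 0.891 CPM in Ctrl and 1.05, 1.76 and 2.65 CPM in TKO, so that Ctrl replicate 1 lay above TKO replicate 1. The Ctrl mean was 0.710 ± 0.632 CPM and the TKO mean 1.82 ± 0.803 (SD, n = 3). Without *Vmn1r-ps135* the order turned. The other 31 members then summed to 1.19, 0.00774 and 0.872 CPM in Ctrl and 0.178, 0.244 and 0.732 CPM in TKO, with means of 0.690 ± 0.612 and 0.385 ± 0.302. Ctrl replicates 1 and 3 had the highest sums and Ctrl replicate 2, with a single count, the lowest. The cluster was set apart with earlier results known, so these sums carry no test.

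**Figure D3:**
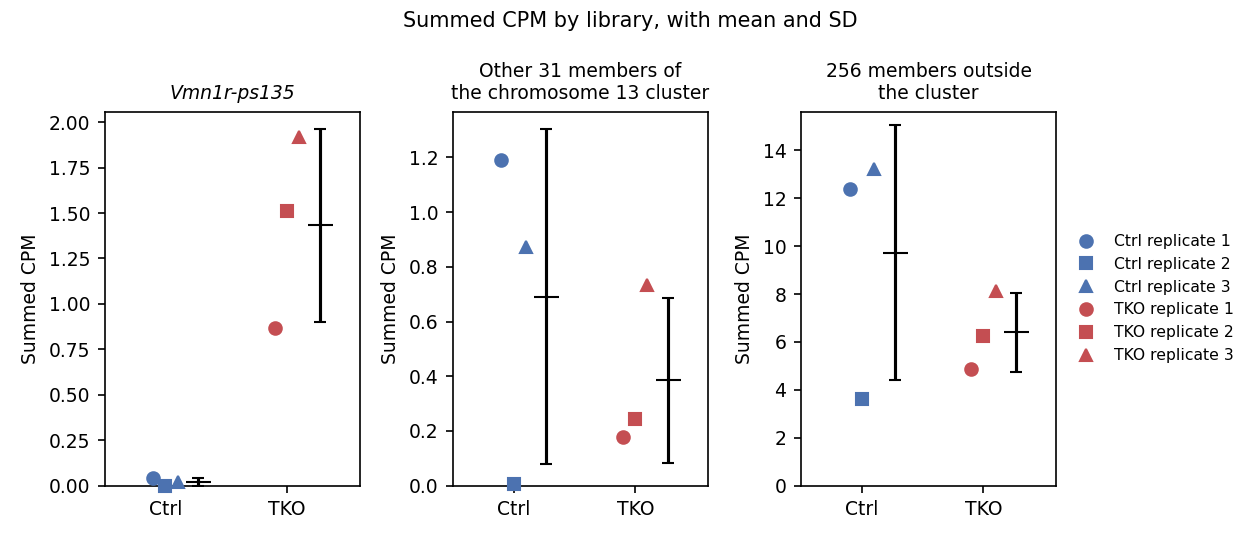
Summed CPM in each library for *Vmn1r-ps135* (left), the other 31 members of the chromosome 13 cluster (middle) and the 256 members outside it (right), with the mean and SD of 3 libraries beside each group. The groups are apart for *Vmn1r-ps135* and overlap in the other panels, where Ctrl replicates 1 and 3 lie highest.

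All of these cluster members other than *Vmn1r-ps135* were too low to pass the filter, and none had more than 24 counts in any library. *Vmn1r216*, an intact V1R gene 171.9 kb before *Vmn1r-ps135*, had 5, 0 and 2 counts in Ctrl and 0, 5 and 24 in TKO. Most of its counts thus came from TKO replicate 3, and its exons overlap those of *Vmn1r217* on the other strand and of *Gm11325* and *Vmn1r-ps127* on its own. *Vmn1r210* had 11, 0 and 0 counts in Ctrl and 0, 0 and 13 in TKO, from 1 library of each group. *Vmn1r221* had 0, 0 and 5 counts in Ctrl and 5, 5 and 7 in TKO. *Vmn1r217* had 5, 0 and 13 counts in Ctrl and 0, 2 and 0 in TKO, the opposite order. These 4 genes did not move together, and in each the groups overlapped.

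Genes of other kinds between the first and the last gene of the cluster were nearly silent apart from one. Of 18 such genes listed, 2 had 3 or more counts, 1 was tested and that one was called. It was *Gm11331*, annotated as an unprocessed pseudogene on the plus strand at chr13:23450704-23450991 (GRCm39), and it ends 2058 bases before *Vmn1r-ps135* begins. *Gm11331* had 0 counts in each Ctrl library and 213, 283 and 504 in the TKO libraries, or 1.81, 2.56 and 4.14 CPM. Against a floor of 3 counts per Ctrl library its TKO mean was at least 104.7-fold higher, with an edgeR adjusted p of 0.00461. It too passed the filter through its TKO libraries alone. Per kilobase of exon, *Gm11331* had 4.31, 3.50 and 4.47 times the counts of *Vmn1r-ps135* in TKO replicates 1 to 3. Both genes had their lowest counts in TKO replicate 1 and their highest in TKO replicate 3. Its sequence is repeated, with 487 other copies over at least 80% of its length in GRCm39, of which 119 are at least 98% identical, so its reads may come from elsewhere and its counts are uncertain. *Gm11313* had 3 counts, all in Ctrl replicate 3, and *Gm11298*, *Gm11300* and *Gm48489* had 2 counts each, in a single library.

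Beyond the last gene of the cluster, 4 of the 5 genes whose nearer end lies within 100 kb had 3 or more counts. *4933404K08Rik*, a lncRNA that starts 9.47 kb from the start of *Vmn1r-ps135*, had 13, 0 and 0 counts in Ctrl and 3, 23 and 52 in TKO, which overlap, and its edgeR adjusted p was 0.9998 (log2 fold change 2.35, SE 1.56). *Zfp322a*, a zinc finger gene on the minus strand whose nearer end lies 84.2 kb from the start of *Vmn1r-ps135*, had 2074, 5959 and 2605 counts in Ctrl and 3762, 3291 and 2324 in TKO, with a log2 fold change of -0.17 (SE 0.30). Both were chosen after their values were seen. *Vmn1r-ps135* and *Gm11331* were thus the only genes called between the first gene of the cluster and 100 kb past its last.

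**Figure D4:**
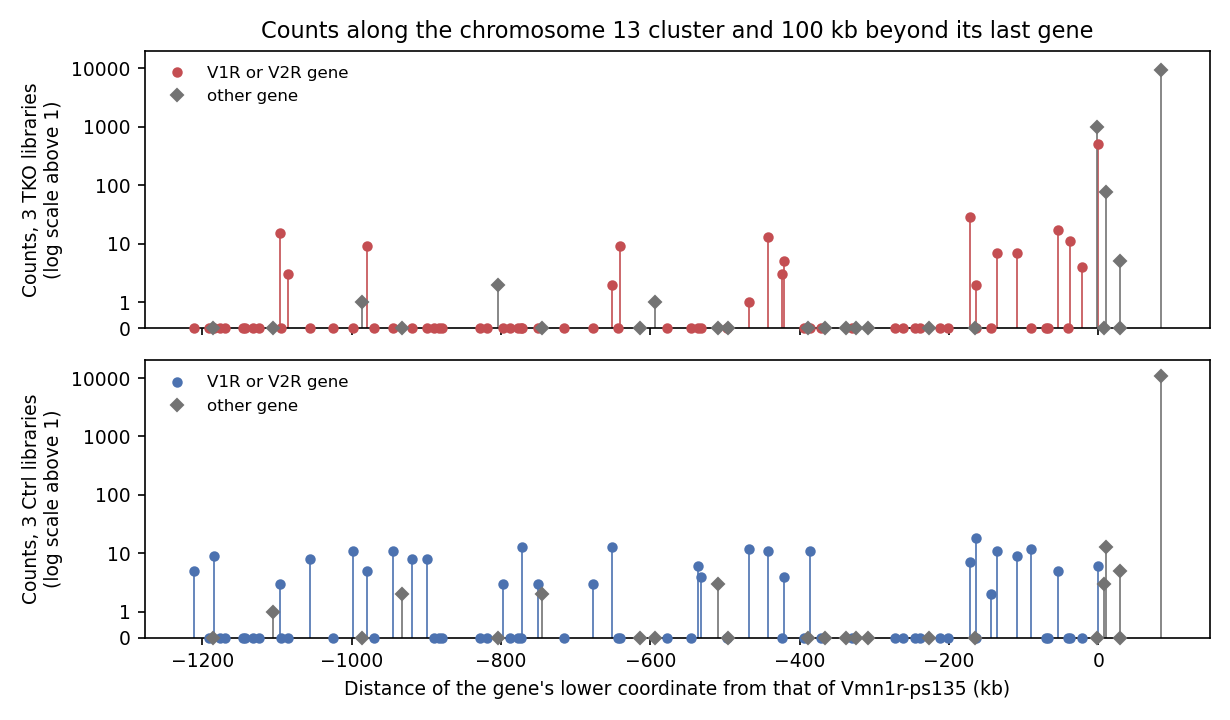
Counts summed over the 3 TKO libraries (top) and the 3 Ctrl libraries (bottom) for each gene of the chromosome 13 cluster and 100 kb beyond it, by distance of its lower coordinate from that of *Vmn1r-ps135* in kb, on a log scale above 1 count. In TKO *Vmn1r-ps135* and *Gm11331* reach 502 and 1000 counts at distance 0 and 2.35 kb before it, whereas the other receptor genes have few or no counts in both groups.

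Outside the cluster, 11 of 256 members passed the filter and none was called, where 0.131% of all genes tested were called higher and none lower. Of these, 4 had a positive and 7 a negative log2 fold change, and each had an edgeR adjusted p of 0.9998. The most abundant was *Vmn2r1* on chromosome 3, one of the family C V2R genes that sensory neurons express together with other V2R genes. It had 83, 79 and 102 counts in Ctrl and 93, 32 and 66 in TKO, or 0.799 ± 0.171 CPM and 0.541 ± 0.250 CPM, with a log2 fold change of -0.56 (SE 0.49). All 6 libraries had it, and the ranges overlapped. Part of its exons lie opposite *Gm65036*, and counts of such a pair can be told apart only where strand was used. *Vmn2r3*, another family C gene on chromosome 3 without such an overlap, had 9, 0 and 19 counts in Ctrl and 43, 36 and 19 in TKO. At 0.0891 ± 0.0882 CPM in Ctrl and 0.283 ± 0.111 in TKO it had the largest positive log2 fold change of the 11, 1.67 (SE 1.14). In CPM, TKO replicate 3 lay below Ctrl replicate 3.

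The other V2R genes that passed the filter also had overlapping groups. *Vmn2r29* on chromosome 7 had 67, 31 and 33 counts in Ctrl and 109, 64 and 17 in TKO, so that TKO replicates 1 and 3 held its highest and its lowest value (log2 fold change 0.43, SE 0.71). *Vmn2r57*, also on chromosome 7, had 35, 61 and 40 counts in Ctrl and 25, 30 and 86 in TKO, at 0.399 ± 0.0640 and 0.397 ± 0.270 CPM. Its TKO libraries spread over more than the Ctrl range on both sides, and its exons overlap *Gm20449* and, on the other strand, *Gm17102*. *Vmn2r18* had 21, 12 and 36 counts in Ctrl and 15, 14 and 21 in TKO (log2 fold change -0.57, SE 0.79). *Vmn2r53* had 34, 3 and 13 counts in Ctrl and 16, 0 and 10 in TKO, with the most negative log2 fold change of the 11 at -1.13 (SE 1.32). For both genes the highest count was in Ctrl replicate 1 or 3.

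*Vmn2r76* had 22, 0 and 19 counts in Ctrl and 2, 1 and 28 in TKO, and *Vmn2r90* had 11, 0 and 10 in Ctrl and 0, 1 and 14 in TKO. Both were present in Ctrl replicates 1 and 3 and TKO replicate 3 and near 0 in the other libraries. *Vmn2r87* had 6, 17 and 11 counts in Ctrl and 21, 15 and 0 in TKO, with a log2 fold change of 0.09 (SE 1.23). Only 2 V1R genes outside the cluster passed the filter. *Vmn1r4* on chromosome 6 had 25, 44 and 43 counts in Ctrl and 16, 38 and 47 in TKO (log2 fold change -0.20, SE 0.62), and its exons lie opposite those of *Nt5c3*. *Vmn1r88* on chromosome 7 had 10, 0 and 4 counts in Ctrl and 12, 24 and 0 in TKO (log2 fold change 1.22, SE 1.56), with a count in 4 of the 6 libraries. Exons of *Vmn1r88* overlap those of *Gm4879* on the same strand.

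Per kilobase of exon, *Vmn1r-ps135* in TKO was above every other named member, at 2.41 CPM per kb. In Ctrl the 4 highest of the members named were *Vmn2r1* at 0.116 CPM per kb, *Vmn1r4* at 0.0884, *Vmn2r29* at 0.0847 and *Vmn2r57* at 0.0608. In TKO these 4 were at 0.0788, 0.0772, 0.114 and 0.0605 CPM per kb. The ranges over the 3 Ctrl libraries of neighbours in this order overlapped, for example 0.0891 to 0.138 CPM per kb for *Vmn2r1* and 0.0675 to 0.107 for *Vmn1r4*. The median over all members was 0.00506 CPM per kb in Ctrl and 0.00136 in TKO. In Ctrl the mean of *Vmn1r-ps135* was 0.0330 CPM per kb, under those 4 genes and *Vmn2r18* at 0.0423. Its Ctrl libraries ranged from 0 to 0.0679, which overlaps *Vmn2r57* (0.0539 to 0.0720) and *Vmn2r18* (0.0185 to 0.0664), so this order is uncertain.

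When the filter was lowered to 3 counts in total, all 288 members were tested and *Vmn1r-ps135* stayed the only one called. In that fit 0.618% of 36581 genes were called higher in TKO and 0.0574% lower. The next smallest edgeR adjusted p of any member was 0.648. At an unadjusted p under 0.05 it had 1 member higher (0.347%) and 8 lower (2.78%), against 3.35% and 2.36% of all genes in that fit.

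*Vmn1r-ps135* was also the only member whose TKO libraries all lay above its Ctrl libraries, 1 of 288 (0.347%), whereas 4.11% of all genes with 3 or more counts and 6.35% of those tested did so. In 8 members (2.78%) all TKO libraries lay below all Ctrl libraries, against 4.34% and 5.11% of genes. These 8 had between 7 and 38 summed counts, none passed the filter, and 5 of them had no count in TKO. Both shares were under those of all genes. There were 110 members with counts in Ctrl libraries only (38.2%), against 15.4% of all genes with 3 or more counts, and 21 with counts in TKO libraries only (7.29%), against 5.38%. For 96 members (33.3%) the counts came from Ctrl replicate 1, Ctrl replicate 3 or both and from no other library, against 12.3% of all genes. These shares of all genes are over genes of every level, whereas nearly all members are low, and the part of level in the difference was not tested.

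The 256 members outside the cluster summed to 12.4, 3.61 and 13.2 CPM in Ctrl and 4.85, 6.23 and 8.12 CPM in TKO. Ctrl held both the highest values and the lowest. The means were 9.73 ± 5.32 CPM in Ctrl and 6.40 ± 1.64 in TKO, with a ratio of TKO to Ctrl of 0.658. Without Ctrl replicates 1 and 3 the ratio was 1.78, against the 1 Ctrl library left. Without the 5 members with the most counts it was 0.564. In both receptor families Ctrl replicates 1 and 3 were above Ctrl replicate 2. The 146 V2R members summed to 8.25, 2.36 and 8.76 CPM in Ctrl and 4.15, 4.67 and 5.08 in TKO. The 141 V1R members other than *Vmn1r-ps135* summed to 5.32, 1.25 and 5.32 CPM in Ctrl and 0.884, 1.80 and 3.77 in TKO, with the lowest sum in TKO replicate 1.

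Detection differed between the receptor classes. V2R genes not annotated as pseudogenes were detected most often, 102 of 124 (82.3%), and V1R genes not annotated as pseudogenes in 115 of 230 (50%). Among pseudogenes, 44 of 118 V2R (37.3%) and 27 of 118 V1R (22.9%) were detected. Annotated exon length followed the same order, with a median of 7646 bases for detected intact V2R genes, 5636 for intact V1R genes, 2084 for V2R pseudogenes and 840 for V1R pseudogenes. The part of length in detection was not tested. Exons of 56 members overlapped those of another gene, 30 on the same strand and 32 on the other. Chromosome 7 held 103 members of 262 listed, chromosome 17 held 54 of 78, chromosome 6 held 52 of 92 and chromosome 13 held 35 of 83, of which 3 were outside the cluster. The members on chromosomes 6, 7 and 17 summed to less in TKO than in Ctrl on average, with 1.85 and 0.955 CPM, 3.80 and 2.64 CPM, and 1.67 and 0.742 CPM, but on all 3 Ctrl replicate 2 was as low as or lower than 1 or more TKO libraries.

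The RefSeq starts of most members that had one lie in sequence poor in CG dinucleotides, the sites of DNA methylation. For 199 members RefSeq gave a window of 250 bases before to 50 bases after an annotated start (GRCm38.p6). These windows had a median of 1 CG against 7 over all 32851 windows. *Vmn1r-ps135* had no window, so its start is not described. In the windows of *Vmn2r1*, *Vmn1r216*, *Vmn1r221* and *Vmn1r222*, among others, the bases after the annotated start begin with ATG, the start codon. Such windows may lie at the start of coding rather than of transcription, so the comparison with all windows may set unlike sites side by side. The exception in CG number was *Vmn2r29*, for which 1 of 2 windows held 23 CG, and no other member had more than 6. Of all windows, 21.5% have as many. That window is shown on its minus strand (GRCm38.p6, chr7:7278240-7278539), with each CG in capitals.

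Vmn2r29 window: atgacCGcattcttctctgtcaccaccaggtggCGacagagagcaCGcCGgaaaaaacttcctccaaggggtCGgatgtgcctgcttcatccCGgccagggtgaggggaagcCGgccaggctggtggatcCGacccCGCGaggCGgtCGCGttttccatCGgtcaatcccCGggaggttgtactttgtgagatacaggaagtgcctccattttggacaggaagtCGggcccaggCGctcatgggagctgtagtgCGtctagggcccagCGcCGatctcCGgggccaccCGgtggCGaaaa

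The stretch occurs once in GRCm39, 30912 bases before the *Vmn2r29* gene as annotated there, where it lies in *Gm45844* and *Gm18190*. *Gm45844* shares exon sequence with *Vmn2r29* on the same strand, so reads in the shared exons cannot be assigned to one of them. The other window of *Vmn2r29* holds no CG.

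Olfactory receptor genes, the family most like the vomeronasal receptors in number, clustering and silence outside sensory neurons, also had their highest sums in Ctrl replicates 1 and 3 and their lowest in Ctrl replicate 2. The 759 with 3 or more counts summed to 22.6, 4.05 and 27.9 CPM in Ctrl and 8.83, 10.35 and 14.7 CPM in TKO. Of these, 10 passed the filter, and *Or10ak7* was called higher, where 0.131% of all genes tested were. There were 3 higher in every TKO library (0.395%) and 18 lower (2.37%), against 4.11% and 4.34% of all genes with 3 or more counts. The difference between the families was not tested. None of the 14 bitter taste receptor genes (Tas2r), 10 trace amine-associated receptor genes and 2 vomeronasal formyl peptide receptor genes with 3 or more counts was called, although only 1 of these, a Tas2r gene, was tested.

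None of the genes listed for vomeronasal signalling was called, where 0.131% of all genes tested were called higher and none lower. Several had few or no counts. Of 29 signalling and companion genes, 10 were tested, with a median log2 fold change of -0.13 against 0.01 over all genes tested. *Trpc2*, the cation channel needed for vomeronasal signalling, had 0 counts in all 6 libraries. The G protein subunit genes *Gnai2* and *Gnao1* had log2 fold changes of 0.14 (SE 0.17) and -0.12 (SE 0.37), and both are expressed in many tissues. The H2-M10 genes, which encode class I molecules found with V2R receptors, had at most 7 counts in any library, and none in TKO. *Gng13* had 13 counts in Ctrl replicate 3 alone. *Reep1*, which encodes an accessory protein of receptor transport, was at 3.86, 6.31 and 3.85 CPM in Ctrl and 2.77, 2.60 and 1.84 in TKO, lower in every TKO library without a call (log2 fold change -0.96, SE 0.32, edgeR adjusted p = 0.593). *Gng8*, a G protein gamma subunit gene of vomeronasal neurons, passed the filter, with 5, 22 and 93 counts in Ctrl and 24, 37 and 54 in TKO (log2 fold change -0.14, SE 0.89), and its groups overlapped. Of 13 markers of vomeronasal or olfactory sensory neurons, 9 were tested and none was called. *Bcl11b*, also expressed in skin, was the most abundant, and the list summed to 580, 566 and 729 CPM in Ctrl and 660, 616 and 817 in TKO. *Omp*, the olfactory marker protein gene, had 69, 14 and 50 counts in Ctrl and 81, 63 and 34 in TKO.

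Among 19 genes of heterochromatin and silencing, only *Atf7ip* was called, where 0.131% of all genes tested were called higher and none lower. It encodes a cofactor of SETDB1 and had a level of 166.7, 177.0 and 219.2 CPM in Ctrl and 360.0, 468.6 and 385.1 CPM in TKO (log2 fold change 1.11, SE 0.16, edgeR adjusted p = 0.0429). *Lhx2*, *Ldb1* and *Ebf1*, whose products bind enhancers of olfactory receptor genes in sensory neurons, were not called. *Lhx2* was at its highest in TKO replicate 3, with 9907 counts against 3915 to 4461 in the other libraries.

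Basal keratinocyte markers were abundant in every library, with a summed level of 14546 to 23865 CPM led by *Krt5*, and none of the 7 was called. *Krt15*, at 2461 ± 329 CPM in Ctrl and 1089 ± 423 in TKO, was lower in every TKO library (log2 fold change -1.18, SE 0.26, edgeR adjusted p = 0.185). It was the only one of the 7 to be so. Of the 7, 3 had a positive log2 fold change (*Trp63*, *Itga6* and *Epcam*), and the median was -0.04. Markers of other cell types moved with the groups in places. Of all genes tested, 0.131% were called higher in TKO, and 6.35% were higher in every TKO library. Of 6 germ cell genes, 4 were tested, *Stag3* was called (log2 fold change 3.58, SE 0.28, edgeR adjusted p = 0.000974), and the list summed to 16.4, 21.9 and 25.1 CPM in Ctrl and 61.1, 100.5 and 66.1 in TKO, with *Tdrd1* the most abundant. *Ddx4*, which defines germ cells, had 6, 8 and 10 counts in Ctrl and 51, 58 and 46 in TKO, or 0.0718 ± 0.0182 and 0.446 ± 0.0742 CPM, and was higher in every TKO library without a call (log2 fold change 2.62, SE 0.66, edgeR adjusted p = 0.296). *Dazl* had 8, 2 and 16 counts in Ctrl and 0, 20 and 23 in TKO, which overlap. Of 5 skeletal muscle genes, all tested, *Myh3* was called (log2 fold change 2.61, SE 0.34, edgeR adjusted p = 0.0211). The list summed to 3.26, 10.28 and 6.67 CPM in Ctrl and 34.0, 35.2 and 33.7 in TKO, with *Ttn* the most abundant. All 5 had a positive log2 fold change and 3 were higher in every TKO library, while for *Acta1* and *Myog* the groups overlapped. Both Merkel cell genes tested, *Atoh1* and *Isl1*, were lower in every TKO library without a call, where 5.11% of all genes tested were lower in every TKO library. The suprabasal keratins *Krt1* and *Krt10* were also lower in every TKO library without a call, with log2 fold changes of -0.51 (SE 0.18) and -0.42 (SE 0.17). In the same list *Loricrin* (0.49, SE 0.70) and *Sbsn* (0.41, SE 0.36) had positive log2 fold changes. *Ivl* was at -0.05 (SE 0.64), and in each of these genes the groups overlapped. No gene was called among the markers of suprabasal keratinocytes, fibroblasts, immune cells, melanocytes, endothelium, Schwann cells and red cells. The part of any of these cells in the counts of *Vmn1r-ps135* was not tested.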

How the data were processed

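The authors depleted rRNA from total RNA of sorted cells, sequenced paired-end libraries, trimmed reads with fastp and aligned them with STAR. The values they deposited are raw counts by Ensembl identifier, 1 column per library, neither normalized nor pooled. Processing notes in the labels name the build as GRCm38 and the methods as GRCm39. The counting program, annotation and strand setting are not given in the sources used here. Symbols and GRCm39 positions were taken from GENCODE for 51477 of 55536 identifiers. Identifiers without a match held between 5.91% and 13.6% of the counts of a library.

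Counts were tested with edgeR 4.0.16 in R 4.3.3 (filterByExpr, minimum count 10, minimum total 15, TMM scaling, robust quasi-likelihood fit, Benjamini-Hochberg adjustment over all genes tested), which was tested on simulated data first. DESeq2 1.42.0 was an alternative. CPM are counts divided by the TMM-scaled library size. The p-values weigh the group difference against the spread between the 3 libraries of a group, with dispersions estimated across genes. Genome copies were searched with BLAST 2.17.0 and aligned with edlib 1.3.9.post1, and windows at annotated starts were those of RefSeq.

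The members and lists were chosen with earlier results of these data known. Members named were those called, the 10 with the most counts, the 10 that passed the filter with the largest log2 fold changes, those higher in every TKO library, the 5 in and the 5 outside the cluster with the most counts, and, of other genes in the cluster, those called and the 5 with the most counts.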

Additional observations from a re-analysis of the deposited data

How the results depend on the processing

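*Vmn1r-ps135* was higher in TKO under each of 14 alternative fits that tested it, with log2 fold changes from 5.56 to 7.21 where Ctrl counts remained (all but the fit without Ctrl replicates 1 and 3) and adjusted p-values from 4.34e-13 to 0.332, and it was called in 9 of them. With DESeq2 on the same genes its adjusted p was 3.26e-11. It was not tested where 10 counts were asked of every library. The number of vomeronasal receptor genes called was 1 in edgeR and 0 where 10 counts were asked of every library, between 0 and 1 when 1 library was left out, and 0 without Ctrl replicates 1 and 3, an alternative chosen after seeing the data. Genes of any kind called numbered 27, all higher, and 214 with DESeq2 on the same genes (193 higher, 21 lower), 227 with its default workflow (198 higher, 29 lower), 247 with a minimum of 3 counts in total (226 higher, 21 lower), 9 with 10 counts in every library, between 7 and 81 when 1 library was left out (8, 7 and 8 without Ctrl replicate 1, 2 or 3, 15 without TKO replicate 2 and 81 without TKO replicate 3, of which 16 were lower), and 1 without Ctrl replicates 1 and 3. The cause of these differences was not tested.

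A fit with a replicate block called 45 genes (44 higher, 1 lower), and *Vmn1r-ps135* stayed the only member called (log2 fold change 6.20, edgeR adjusted p = 0.0315). Same-numbered libraries deviated together with correlations of 0.168, 0.0873 and 0.127, and every library correlated best with its own number, a hint from the data only, since the labels do not say that numbers pair embryos.

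The summed level of the cluster was 1.11 CPM higher in TKO, but 0.306 CPM lower without *Vmn1r-ps135* (-0.306). Outside the cluster it was lower by 3.33 CPM (-3.33), but 2.80 CPM higher without Ctrl replicates 1 and 3. Leaving out 1 library gave differences between 0.691 CPM (without TKO replicate 3) and 1.49 CPM in the cluster, and between -6.39 CPM (without Ctrl replicate 2) and -1.59 CPM (without Ctrl replicate 3) outside it, with -2.002 CPM without Ctrl replicate 1. Members higher in every TKO library numbered 1, between 1 and 7 when 1 library was left out, and 17 without Ctrl replicates 1 and 3. What size of difference could be called at these depths was not tested for members near 3 counts.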
